A study of Mus musculus with 3 samples.

Results

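Genes of the heat shock protein and J-domain chaperone families were followed in RNA sequencing of mouse calf muscle. They were taken by name, as the rows whose gene symbol begins with Hspa, Hspb, Hspd, Hspe, Hsph, Hsp90 or Dnaj, leaving out pseudogene names ending in -ps or -ps with digits, and with a mean of at least 1 CPM (read counts scaled to the library total, the deposited unit) over 3 libraries. Of 42258 rows per table, 83 matched the letters, 10 of them had pseudogene names and 9 had a mean under 1 CPM. The remaining 64 genes were 0.494% of the 12966 genes that passed the same minimum. The lowest gene kept was Hspb11 (mean 2.08 CPM) and the highest one left out was Dnajb7 (mean 0.147 CPM), so no gene lay close to the limit. Dnajb13, Dnajb8, Dnajc22, Dnajc5b and Dnajc5g were listed at 0 in every library, and Dnajb3, Dnajb7, Dnajc6 and Hspb9 had 14 reads or fewer in each.

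Molecular chaperones bind proteins that have not reached, or have lost, their folded state. HSP70 proteins grip exposed greasy stretches and let go in a cycle driven by ATP, J-domain proteins bring clients to HSP70 and start that cycle, and HSP110 proteins exchange its nucleotide. HSP90 finishes the folding of kinases, hormone receptors and, in muscle, myosin, while small heat shock proteins hold unfolding proteins without ATP and sit on the Z-discs and filaments of striated muscle. Heat, exercise or unfolded protein in the cytosol activates the transcription factor HSF1, which binds heat shock elements upstream of the inducible genes, and unfolded protein in the endoplasmic reticulum drives a separate set through its own upstream elements.

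By family, the 64 genes comprised 13 of HSP70 and HSP110, 3 of HSP90, 2 of the mitochondrial chaperonin and 6 small heat shock proteins. J-domain genes made up the rest, with 4 of class A, 9 of class B and 24 of class C, besides 3 genes that share only the letters. These 3 were Hspbp1 and Hspbap1, which are named for binding or joining a heat shock protein, and Hspb11, which encodes a subunit of the intraflagellar transport machinery of cilia.

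RNA of gastrocnemius and plantaris, the fast calf muscles, was pooled within each group of male mice and sequenced as 1 library per group. The young library held 3 mice aged 24 weeks, with the strain label C57BL/7J and no diet given. The aged control library held 6 C57BL/6J mice that were fed without EPA (eicosapentaenoic acid, a fish-oil fatty acid) for 12 weeks from the age of 75 weeks, and the aged EPA library held 6 such mice whose diet carried EPA at 1 wt% over those weeks, both reaching 87 weeks. Aged control against young thus differs in age, in strain label and in the number of mice pooled (6 against 3), and possibly in diet. The young sample is also numbered apart from the aged ones, and no preparation or sequencing batch is listed for any library. A batch could not be told apart from the other differences against young. Aged EPA against aged control differs in the diet. With 1 pooled library per group there was no replicate, no test of any difference between groups was possible, and every value below describes these 3 libraries.

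The libraries held between 55969822 and 57622886 recovered reads, so a count of 3 reads was worth 0.0521 to 0.0536 CPM. All 10 skeletal muscle markers were high, from Acta1 (skeletal actin) at 31001 CPM to Casq1 (fast-fibre calsequestrin) at 2062 CPM in young, so the labelled tissue carried its defining transcripts. Other marker lists differed between libraries. Their summed CPM is given here for young, then aged control, then aged EPA. Slow fibre markers stood at 814, 1220.4 and 1015, endothelial markers at 399.6, 325 and 311, red blood cell markers at 1508, 561 and 565, adipocyte markers at 427, 281 and 321, smooth muscle markers at 661, 656 and 571, and fibroblast markers at 1491, 1388 and 1276. Macrophage and leukocyte markers (173, 181 and 180.3) and nerve markers (161, 166 and 182) had sums closer together, although the median log2 change of macrophage markers was 0.31 in aged control against young (5 of 6 compared higher) and that of nerve markers 0.33 in aged EPA against young (5 of 6 higher). Immediate early genes, which respond to handling and activity, stood at 439, 644 and 599.9 CPM, with 11 of 11 compared genes higher in aged control than in young. The part of these differences in the chaperone values was not tested, and in bulk tissue fewer cells of a type and less RNA per cell cannot be told apart.

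The chaperone genes spanned a wide range of levels that was nearly the same in all 3 libraries. Per kilobase of annotated exon, Hsp90ab1, the constitutive cytosolic HSP90, ranked highest at 336 CPM per kb. Next came the muscle small heat shock proteins Hspb8 (287 CPM per kb) and Hspb7 (262 CPM per kb), then Hspa8, the constitutive cytosolic HSP70, at 209 CPM per kb and the small heat shock proteins Hspb1 (202 CPM per kb) and Hspb6 (169 CPM per kb). Among J-domain genes, Dnaja2, a class A partner of cytosolic HSP70, led with 60.0 CPM per kb. Hspbap1 (0.394 CPM per kb) and Hspa4l, an HSP110 gene (0.298 CPM per kb), ranked last. Between its highest and lowest library a chaperone gene differed by a median of 1.14-fold, against 1.2-fold over all genes compared, and 45 of the 64 (70.3%) stayed within 1.2-fold, against 49.99% of all genes. The chaperones and all genes were not matched for level, on which counting error depends, so these shares do not set the chaperones apart.

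**Figure D1:**
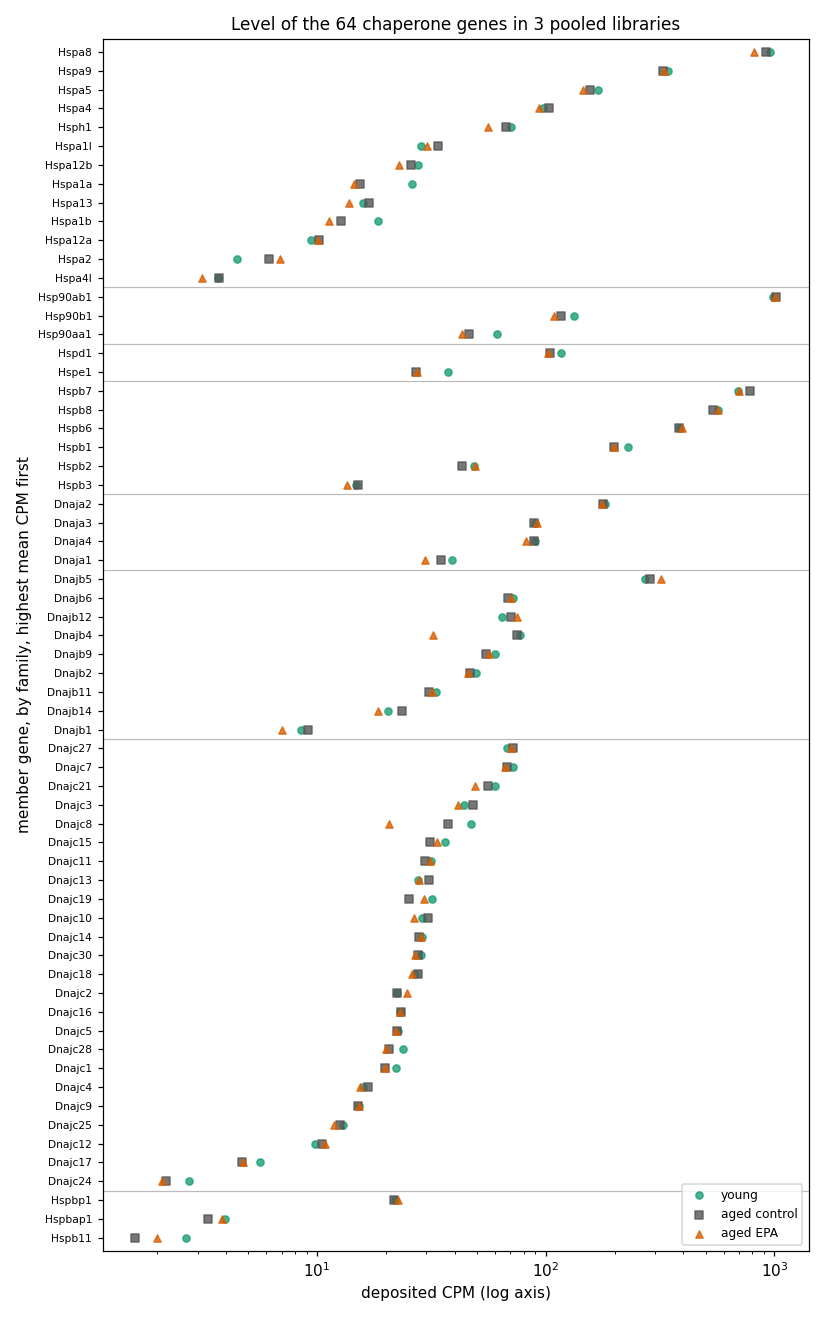
Deposited CPM (log axis) of the 64 chaperone genes by family, with 1 symbol per pooled library (young, aged control, aged EPA). Most symbols of a gene nearly coincide; Dnajb4 (31.99 CPM) and Dnajc8 (20.6 CPM) stand apart to the left in aged EPA, and Hspa1a (25.9 CPM) and Hspa1b (18.5 CPM) to the right in young.

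Few chaperone genes differed by 1.5-fold or more on the log2 scale of CPM + 1, and all that did were lower in an aged library. In aged control against young, 0 were at least 1.5-fold higher (2.69% of all genes compared) and 1 was at least 1.5-fold lower, Hspa1a (2.55% of all genes). Between the aged libraries, 0 were higher with EPA (1.69%) and 2 lower, Dnajb4 and Dnajc8 (1.91%). The third comparison, aged EPA against young, shares a library with each of the others; here 0 were higher (2.4%) and 4 lower, namely Dnajb4, Dnajc8, Hspa1a and Hspa1b (2.96%). At 2-fold, Dnajb4 alone was lower in aged EPA relative to aged control (0.64% of all genes), and Dnajb4 and Dnajc8 were lower than in young (0.802%).

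Small differences leaned downward. Relative to young, 42 chaperone genes were lower and 22 higher in aged control (52.4% and 47.5% of all genes), with a median log2 change of -0.04 against -0.01 over all genes. Also relative to young, 46 were lower and 18 higher in aged EPA (56.7% and 43.3% of all genes), with a median of -0.10 against -0.04. Between the aged libraries, 41 were lower and 23 higher with EPA (55.8% and 44.2% of all genes). This split rested on the scaling: over each library's own read total it was 33 lower and 31 higher (47.0% and 53.0% of all genes). The median on deposited CPM was -0.03, as over all genes, and over own totals it was -0.01 against 0.01. The exact 95% counting interval of the read ratio, which covers counting error only and neither mice nor library preparation, lay wholly below 0 for 26 genes and above 0 for 11 in aged control against young (29.7% and 25.5% of all genes). With EPA against aged control it lay below 0 for 18 and above 0 for 13 (20.9% and 25.4% of all genes).

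**Figure D2:**
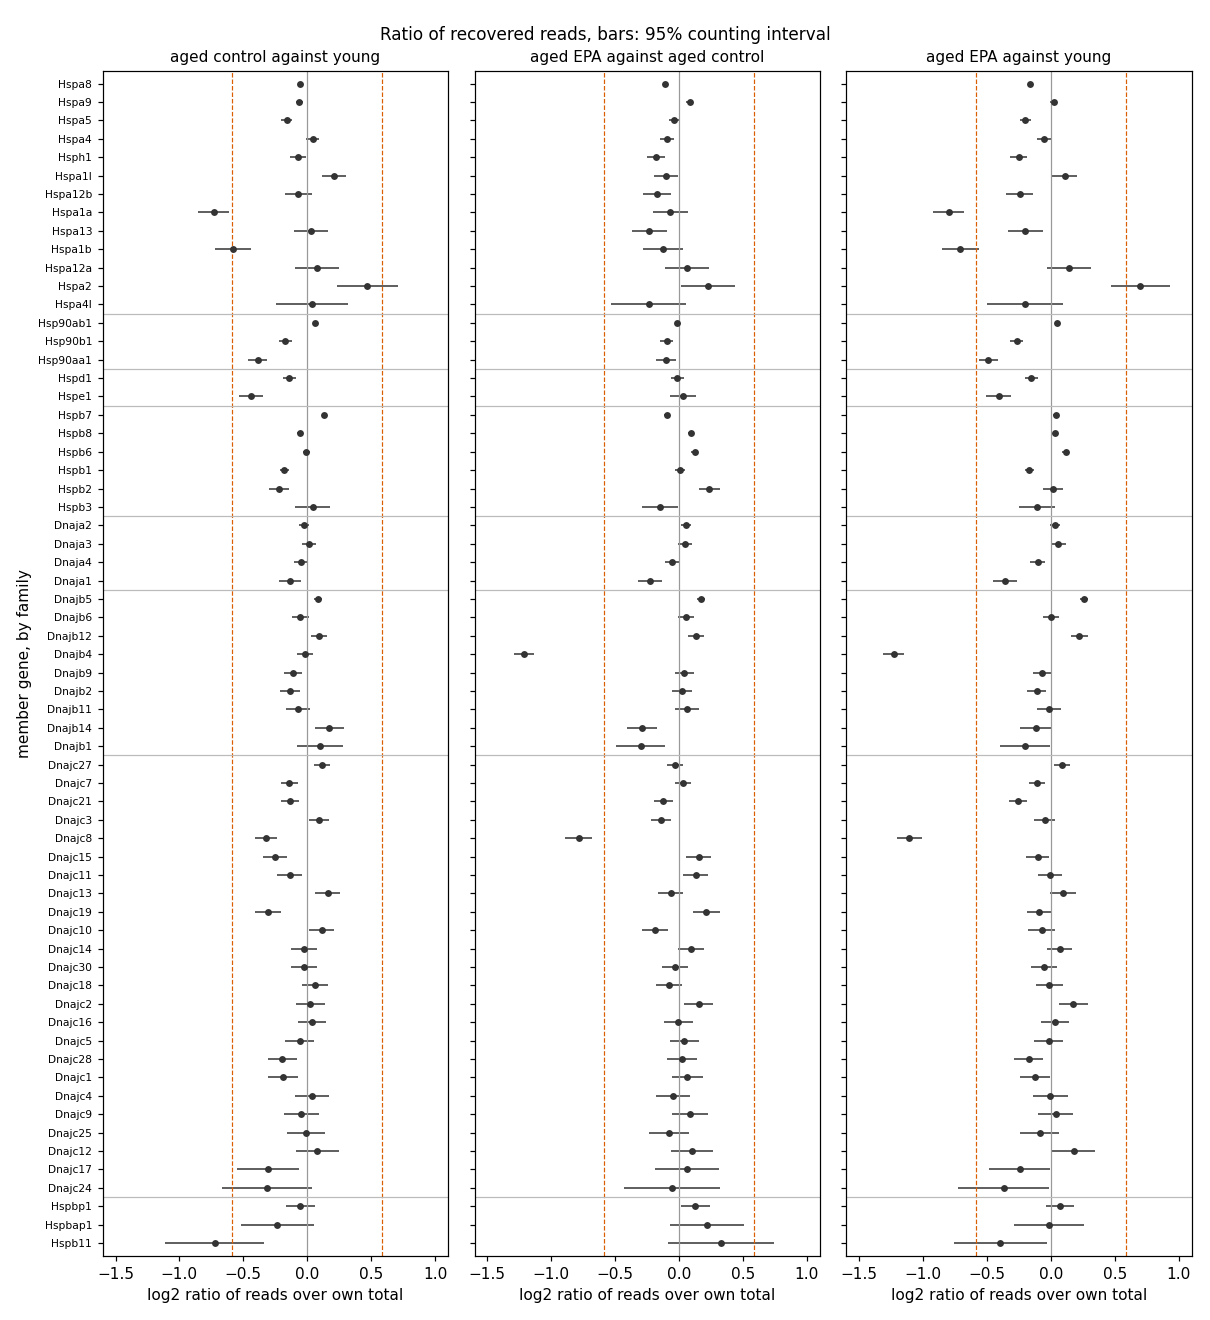
Log2 ratio of recovered reads over each library's own total for each chaperone gene (points) in the 3 comparisons (panels), with exact 95% counting intervals as bars and dashed lines at 1.5-fold. Dnajb4 (-1.21) and Dnajc8 (-0.79) lie past the line in aged EPA against aged control, Hspa1a (-0.73) and Hspb11 (-0.72) in aged control against young, and Hspa2 (0.70) on the high side in aged EPA against young.

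Among HSP70 genes the inducible cytosolic pair, Hspa1a and Hspa1b, was highest in the young library. Both encode the HSP70 that cells make on heat or exertion, and they lie near each other on chromosome 17 (Hspa1a, ENSMUSG00000091971, chr17:34969190-34972156; Hspa1b, ENSMUSG00000090877, chr17:34956436-34959238; GRCm38, both on the minus strand). Hspa1a stood at 25.9 CPM (young), 15.3 CPM (aged control) and 14.5 CPM (aged EPA). Both aged libraries were low and close together, with a log2 change of -0.72 in aged control against young (log2 count ratio -0.73, 95% counting interval -0.86 to -0.61) and of -0.07 in aged EPA against aged control (log2 count ratio -0.07, 95% counting interval -0.21 to 0.07). Hspa1b followed the same order, at 18.5 CPM (young), 12.8 CPM (aged control) and 11.2 CPM (aged EPA), with a log2 change of -0.51 in aged control against young (log2 count ratio -0.58, 95% counting interval -0.72 to -0.44). Against young, aged EPA had a log2 change of -0.79 for Hspa1a and -0.68 for Hspa1b. The transcripts share 58.8% of the stretches of 50 bases of Hspa1a, so reads can pass between them in counting, and their sum is the safer value. It was 44.4 CPM (young), 28.1 CPM (aged control) and 25.8 CPM (aged EPA). The log2 count ratio of the sum was -0.67 in aged control against young (95% counting interval -0.76 to -0.58) and -0.10 in aged EPA against aged control (-0.20 to 0.01). The difference between the aged libraries was thus within counting error. Hspa1a was the only chaperone gene with the young library alone at least 1.5-fold above both others (0.841% of all genes).

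The 250 bases before the starts of this pair are shown because both genes were high in the same library. They come from RefSeq (GRCm38.p6) and run 5' to 3' in the direction of transcription from the minus strand, at chr17:34972157-34972406 for Hspa1a and chr17:34959239-34959488 for Hspa1b. Capitals mark a heat shock element of 2 units (GAANNTTC or TTCNNGAA, each its own reverse complement, so that both strands are covered).
Hspa1a: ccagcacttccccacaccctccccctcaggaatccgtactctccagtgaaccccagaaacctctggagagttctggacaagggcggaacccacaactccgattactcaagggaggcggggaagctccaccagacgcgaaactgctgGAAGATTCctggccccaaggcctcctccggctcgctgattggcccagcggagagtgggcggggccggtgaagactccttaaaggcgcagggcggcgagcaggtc
Hspa1b: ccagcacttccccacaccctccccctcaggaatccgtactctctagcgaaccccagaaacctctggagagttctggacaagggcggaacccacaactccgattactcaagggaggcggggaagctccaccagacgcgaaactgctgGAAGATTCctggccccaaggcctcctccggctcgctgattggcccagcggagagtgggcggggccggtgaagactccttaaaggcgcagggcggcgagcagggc
The windows agree at 247 of 250 bases (98.8%), with 3 mismatches and no gaps, and carry the same single match. An element of these letters was found before 14.5% of the 27025 genes with such a window, so that a match is a description and not evidence of a bound site.

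The other HSP70 genes differed less. Hspa8, which folds new proteins and strips clathrin from vesicles, stood at 959.9 CPM (young), 920.1 CPM (aged control) and 813 CPM (aged EPA), lowest in aged EPA, with a log2 change of -0.18 against aged control on deposited CPM and a smaller log2 count ratio of -0.11 over own totals (95% counting interval -0.13 to -0.09). Hspa8 shares 38.6% of its 50-base stretches with other genes, and Gm15459, one of them, stood at 12.7, 26.5 and 12.7 CPM. With Gm15459 added, the log2 count ratio of Hspa8 was -0.13 in aged EPA against aged control. Hspa9, the mitochondrial HSP70, stood at 342 CPM (young), 326 CPM (aged control) and 328 CPM (aged EPA), within 1.05-fold. Hspa5, the HSP70 of the endoplasmic reticulum, was highest in young, at 169 CPM (young), 156 CPM (aged control) and 146 CPM (aged EPA).

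Hspa1l and Hspa2, both best known from the testis, were not highest in young. Hspa1l (chr17:34972703-34979285) stood at 28.5 CPM (young), 33.9 CPM (aged control) and 30.1 CPM (aged EPA), highest in aged control, although it lies next to Hspa1a. An antisense gene, Gm10501, covers 71.9% of its exon bases at 0.766 CPM or less. Hspa2 was lowest in young, at 4.46 CPM (young), 6.15 CPM (aged control) and 6.86 CPM (aged EPA), the largest positive change of a chaperone gene against young in either aged library (log2 change 0.39 in aged control and 0.53 in aged EPA). Its log2 count ratio in aged EPA against young was 0.70 (95% counting interval 0.47 to 0.93), past 1.5-fold on that scale. Hspa13, an HSP70 relative of the endoplasmic reticulum, was lowest in aged EPA, at 15.9 CPM (young), 16.8 CPM (aged control) and 13.8 CPM (aged EPA). Hspa12b, an HSP70 relative found in endothelium, stood at 27.5 CPM (young), 25.8 CPM (aged control) and 22.7 CPM (aged EPA), in the same order as the summed endothelial markers given above, and its share in them was not tested. Hsph1, the heat-inducible HSP110, stood at 70.5 CPM (young), 66.7 CPM (aged control) and 56.1 CPM (aged EPA) and was lowest in aged EPA. The remaining 3 genes were Hspa4 (93.1 to 103 CPM over the libraries), Hspa4l (3.14 to 3.73 CPM) and Hspa12a (9.40 to 10.2 CPM). Of the 13 genes of the family, 11 were lower with EPA than in aged control (10 over own totals), with a median log2 change of -0.16 (-0.10 over own totals), where 55.8% of all genes were lower (47.0% over own totals).

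**Figure D3:**
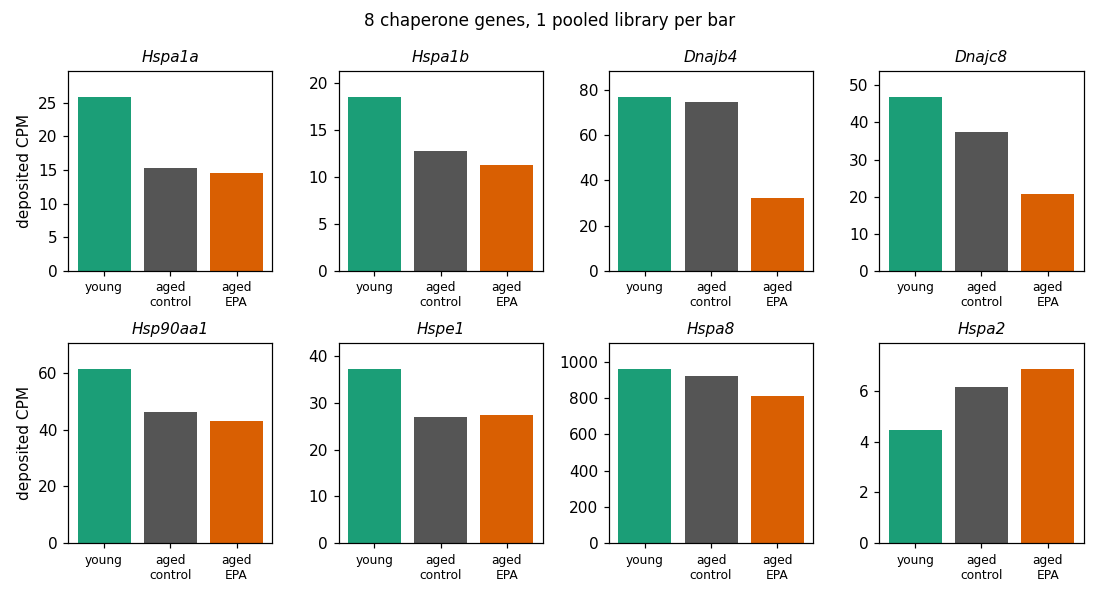
Deposited CPM of 8 chaperone genes, with 1 bar per pooled library and no error bar since each group is 1 library; each panel has its own scale from 0. Hspa2 is lowest in young and highest in aged EPA, and the other genes are highest in young. Of those, all but Hspe1 are lowest in aged EPA. The gap between the aged bars is largest for Dnajb4 and Dnajc8, and is similar for Hspa1b and Hspa8 (log2 change -0.17 and -0.18).

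Of the 3 HSP90 genes, 2 were highest in young. Hsp90ab1, the constitutive cytosolic form, was level at 991 CPM (young), 1021 CPM (aged control) and 1007 CPM (aged EPA). Hsp90aa1, the inducible cytosolic form (chr12:110690605-110702728), was highest in young, at 61.4 CPM (young), 46.3 CPM (aged control) and 43.0 CPM (aged EPA), with a log2 change of -0.40 in aged control against young (log2 count ratio -0.39, 95% counting interval -0.46 to -0.31). The aged libraries were close (log2 change -0.11). Hsp90aa1 shares 47.5% of its 50-base stretches with other genes, mainly the processed copy Gm12346 (5.05, 4.58 and 3.14 CPM), which bounds how firmly its level can be read. Hsp90b1, the HSP90 of the endoplasmic reticulum, stood at 133 CPM (young), 116 CPM (aged control) and 108 CPM (aged EPA), again highest in young and lowest in aged EPA.

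The mitochondrial chaperonin genes, Hspd1 (the folding chamber) and Hspe1 (its lid), were highest in young and close to each other in both aged libraries. Hspe1 stood at 37.2 CPM (young), 26.99 CPM (aged control) and 27.4 CPM (aged EPA), with a log2 change of -0.45 in aged control against young (log2 count ratio -0.44, 95% counting interval -0.54 to -0.35) and 0.02 in aged EPA against aged control. Hspd1 stood at 117 CPM (young), 105 CPM (aged control) and 103 CPM (aged EPA), a smaller difference with a log2 change of -0.16 in aged control against young. Hspe1 shares 18.4% of its 50-base stretches with other genes, mainly AC117239.2. Hspd1 shares 39.7%, mainly with Hspd1-ps3, which bounds how firmly both levels can be read. The genes are transcribed away from each other from chromosome 1, and 112 bases of their annotated exons overlap on opposite strands, so that reads there cannot be told apart without strand. Their RefSeq starts lie 215 bases apart. Within that stretch lies a cluster of heat shock elements, 71 bases before the Hspe1 start, shown with 6 bases on either side because it faces both genes. All 30 bases printed are annotated as exon in GENCODE (chr1:55088053-55088082, GRCm38.p6, plus strand, capitals as above).
Hspd1-Hspe1 site: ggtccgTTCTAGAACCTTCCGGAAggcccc
The capitals hold 3 overlapping matches to the element of 2 units and 2 to the element of 3 units (GAANNTTCNNGAA or TTCNNGAANNTTC). An element of 3 units was found before 0.514% of all genes and before 3 of the 52 chaperone genes with a window (Hspd1, Hspe1 and Dnajb6). All 3 had their highest deposited CPM in young, Dnajb6 by only 1.05-fold over its lowest library. Over own totals Dnajb6 was not highest in young, at 71.1 CPM (young), 68.5 CPM (aged control) and 71.2 CPM (aged EPA). Dnajb6 also shares 17.7% of its 50-base stretches with other genes. Hspd1 and Hspe1 have the cluster shown in common, so their matches are not separate sites.

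Small heat shock proteins were among the most abundant chaperones and differed little. Hspb7, a muscle protein that binds filamin, was highest in aged control, at 692 CPM (young), 781 CPM (aged control) and 703 CPM (aged EPA). Hspb8, which works with Bag3 to clear damaged Z-disc proteins, stood at 569 CPM (young), 538 CPM (aged control) and 569 CPM (aged EPA). Hspb6, a partner of Hspb1 in muscle, was level at 385 CPM (young), 381 CPM (aged control) and 395 CPM (aged EPA). Hspb1, the stress-inducible member of the group, was highest in young at 228 CPM (young), 199 CPM (aged control) and 198 CPM (aged EPA), but shares 48.8% of its 50-base stretches with a pseudogene, Hsp25-ps1 (2.29 to 2.83 CPM). Hspb2, a partner of Hspb3 in muscle, was lowest in aged control, at 48.8 CPM (young), 43.1 CPM (aged control) and 48.9 CPM (aged EPA), and 30.2% of its exon bases overlap its neighbour Cryab on the opposite strand. Cryab, the alpha B-crystallin, was also lowest in aged control at 773 CPM (young), 704 CPM (aged control) and 735 CPM (aged EPA). Hspb3 ranged from 13.6 to 15.1 CPM. The 6 genes summed to 1938 CPM (young), 1958 CPM (aged control) and 1928 CPM (aged EPA).

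Class A J-domain proteins resemble the bacterial DnaJ and serve HSP70 in the cytosol, or in mitochondria in the case of Dnaja3. Dnaja1, a heat-inducible partner of Hspa8, was the one with the clearest order, at 39.0 CPM (young), 35.0 CPM (aged control) and 29.7 CPM (aged EPA), with a log2 change of -0.38 in aged EPA against young (log2 count ratio -0.36, 95% counting interval -0.45 to -0.27). Dnaja1 shares 11.9% of its 50-base stretches with other genes, among them Gm15542 (4.12, 3.48 and 2.82 CPM). Dnaja2 stood at 182 CPM (young), 178 CPM (aged control) and 176 CPM (aged EPA) and Dnaja3 at 89.8 CPM (young), 89.3 CPM (aged control) and 91.3 CPM (aged EPA), both level. Dnaja4 stood at 89.8 CPM (young), 89.1 CPM (aged control) and 81.8 CPM (aged EPA), slightly lower in aged EPA on deposited CPM. Its log2 count ratio in aged EPA against aged control was -0.06, within counting error (95% counting interval -0.11 to 0.003). Of the Dnaja4 exon bases, 44.1% overlap Wdr61 on the opposite strand.

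Class B held the largest difference of the whole set. Dnajb4, which encodes a cytosolic partner of HSP70 known to clear misfolded proteins in muscle and mutated in a myopathy (ENSMUSG00000028035, chr3:152178511-152210302, minus strand), was low in the aged EPA library alone. It stood at 76.9 CPM (young), 74.8 CPM (aged control) and 31.99 CPM (aged EPA). Young and aged control agreed within counting error (log2 count ratio -0.02, 95% counting interval -0.08 to 0.04), while aged EPA was lower than aged control with a log2 change of -1.20 (log2 count ratio -1.21, 95% counting interval -1.29 to -1.13) and lower than young with -1.24. Only 0.918% of all genes had the aged EPA library alone at least 1.5-fold below both others, and 0.355% at least 2-fold. Dnajb4 shares no 50-base stretch with another gene and its annotated exons overlap no other gene. Other heat-inducible genes did not follow it in size, since the log2 change in aged EPA against aged control was -0.07 for Hspa1a, -0.25 for Hsph1 and -0.33 for Dnajb1.

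The other class B genes ranged by 1.29-fold or less between libraries. Dnajb1, the classical heat-inducible partner of HSP70, was low throughout, at 8.53 CPM (young), 9.09 CPM (aged control) and 7.02 CPM (aged EPA), with aged EPA the lowest (log2 count ratio -0.30, 95% counting interval -0.49 to -0.11 against aged control). Dnajb5, whose product regulates histone deacetylases in striated muscle, was highest in aged EPA, at 272 CPM (young), 285 CPM (aged control) and 319.7 CPM (aged EPA), with a log2 change of 0.17 against aged control and 0.23 against young. Dnajb12, a membrane J-domain protein of the endoplasmic reticulum, had the same order at 64.5 CPM (young), 70.8 CPM (aged control) and 74.5 CPM (aged EPA). Its paralogue Dnajb14 did not, being highest in aged control at 20.4 CPM (young), 23.6 CPM (aged control) and 18.5 CPM (aged EPA). Dnajb6, mutated in a limb girdle muscular dystrophy, was level at 72.2 CPM (young), 68.5 CPM (aged control) and 70.6 CPM (aged EPA). Dnajb2, Dnajb9 and Dnajb11 each varied less than Dnajb12.

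Class C groups J-domain proteins with special tasks and little else in common. Dnajc8, a nuclear J-domain protein associated with splicing (ENSMUSG00000054405, chr4:132535550-132553742, plus strand), was ordered young, aged control, aged EPA, at 46.9 CPM (young), 37.3 CPM (aged control) and 20.6 CPM (aged EPA). The log2 change was -0.32 in aged control against young (log2 count ratio -0.32, 95% counting interval -0.41 to -0.24) and -0.83 in aged EPA against aged control (log2 count ratio -0.79, 95% counting interval -0.89 to -0.68), which added to -1.15 against young. It shares 4.18% of its 50-base stretches with another gene, Gm4928. Dnajc8 and Dnajb4 were the only chaperone genes with the aged EPA library alone at least 1.5-fold below both others.

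The upstream windows of these genes, the 2 that were low in aged EPA, are shown for comparison with the inducible pair (RefSeq, GRCm38.p6, 5' to 3' in the direction of transcription, capitals as above). The Dnajb4 window (chr3:152193846-152194095, minus strand) precedes an internal start inside an annotated intron, and the one at the outer start (chr3:152210084-152210333) held no match and is not shown. The Dnajc8 window (chr4:132535309-132535558, plus strand) held no match to the heat shock element either.
Dnajb4: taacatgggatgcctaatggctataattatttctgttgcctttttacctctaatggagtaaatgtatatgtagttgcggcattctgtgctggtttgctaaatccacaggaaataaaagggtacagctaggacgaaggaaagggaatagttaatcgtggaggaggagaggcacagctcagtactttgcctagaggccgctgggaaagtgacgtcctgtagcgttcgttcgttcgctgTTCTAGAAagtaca
Dnajc8: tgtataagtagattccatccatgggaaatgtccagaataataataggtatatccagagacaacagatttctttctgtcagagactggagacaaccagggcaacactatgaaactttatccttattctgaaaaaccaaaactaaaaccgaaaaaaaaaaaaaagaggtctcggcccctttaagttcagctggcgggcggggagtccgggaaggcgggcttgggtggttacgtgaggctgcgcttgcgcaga
Of these, only the internal Dnajb4 window held a match.

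Of the other class C genes, Dnajc27 and Dnajc7 had the highest CPM. Dnajc27, a small GTPase with a J-domain, stood at 67.6 CPM (young), 72.2 CPM (aged control) and 70.5 CPM (aged EPA), and Dnajc7, which shuttles clients between HSP70 and HSP90, at 72.2 CPM (young), 67.5 CPM (aged control) and 66.4 CPM (aged EPA). Dnajc13, which acts in endosomal trafficking, was highest in aged control at 27.6 CPM (young), 30.7 CPM (aged control) and 28.0 CPM (aged EPA). Dnajc19, a subunit linked to the import motor of mitochondria, was lowest in aged control at 31.7 CPM (young), 25.3 CPM (aged control) and 29.2 CPM (aged EPA), with a log2 change of -0.31 from young to aged control and 0.20 between the aged libraries. Dnajc2, which binds HSP70 at the ribosome, was highest in aged EPA at 22.3 CPM (young), 22.3 CPM (aged control) and 24.7 CPM (aged EPA). Dnajc12, a partner of HSP70 in folding aromatic amino acid hydroxylases, stood at 9.74 CPM (young), 10.6 CPM (aged control) and 10.8 CPM (aged EPA). The 24 class C genes had a median log2 change of -0.03 in aged control against young and again -0.03 between the aged libraries (0.01 over own totals), where all genes had -0.01 and -0.03.

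The 3 genes that share only the letters were low to moderate. Hspbp1, a nucleotide exchange factor of HSP70, was level at 21.9 CPM (young), 21.7 CPM (aged control) and 22.6 CPM (aged EPA). Hspbap1 stood at 3.97 CPM (young), 3.32 CPM (aged control) and 3.85 CPM (aged EPA). Hspb11 was lowest in aged control, at 2.67 CPM (young), 1.59 CPM (aged control) and 1.98 CPM (aged EPA), the least abundant gene of the set, with a wide interval (log2 count ratio -0.72, 95% counting interval -1.11 to -0.34 in aged control against young).

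Grouped by site of action, lists that overlap in Hspb1 and Dnajb4, the stress-inducible cytosolic genes stood lowest in aged EPA. Of 11, 9 were lower in aged control than in young (median log2 change -0.08), 11 were lower with EPA than in aged control (median -0.18, and 10 with a median of -0.12 over own totals) and 11 were lower in aged EPA than in young (median -0.32, and 11 with a median of -0.25 over own totals). Hspa8, which is also made without stress, supplied most of their summed CPM (1582, 1471 and 1290.2 in young, aged control and aged EPA). The other 10 summed to 622, 551 and 477 CPM, and single genes weighed heavily in these sums. Of these 10, Hspb1 (228, 199 and 198 CPM) differed most in CPM between young and aged control. Dnajb4 (76.9, 74.8 and 31.99 CPM) differed most between the aged libraries, so the sums do not describe an even decline of the list. Without Hspa8, 8 of 10 were lower in aged control than in young and 10 of 10 lower with EPA than in aged control (9 over own totals). Of the 10 mitochondrial genes, 9 were lower in aged control than in young (median -0.13, and 8 over own totals), and 6 were higher with EPA than in aged control (median 0.02). The 10 genes of the endoplasmic reticulum were split 5 to 5 in aged control against young (median -0.01), and 7 were lower with EPA than in aged control (median -0.10, and 6 over own totals). The 10 small heat shock protein and muscle J-domain genes had medians of -0.06 in aged control against young and 0.02 between the aged libraries. Of all genes, 52.4% were lower in aged control against young (53.5% over own totals), 55.8% between the aged libraries (47.0%) and 56.7% in aged EPA against young (50.9%), and no test of the lists was possible.

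**Figure D4:**
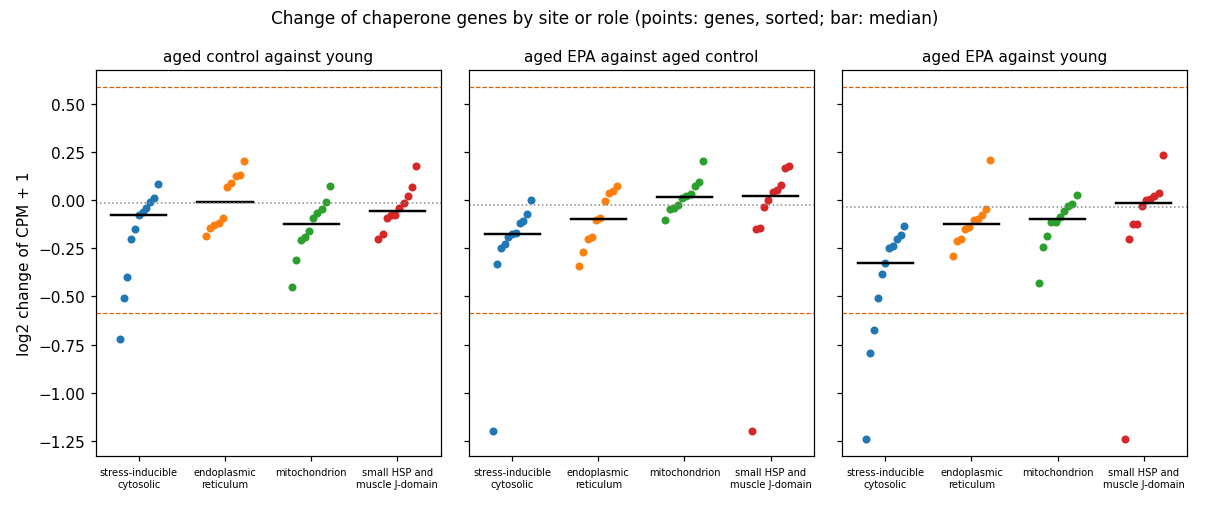
Log2 change of CPM + 1 of the chaperone genes grouped by site (points, sorted within a group, with Hspb1 and Dnajb4 in both the first and the last group) in the 3 comparisons; black bars are group medians, the dotted line the median of all genes and dashed lines 1.5-fold. The stress-inducible cytosolic genes have the lowest median in each comparison with aged EPA (-0.18 and -0.32), and the mitochondrial genes the lowest in aged control against young (-0.13).

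The factors that switch on or assist these chaperones stayed within 1.5-fold in each comparison, on the log2 scale of CPM + 1. Hsf1, the main heat shock factor, stood at 40.5 CPM (young), 45.8 CPM (aged control) and 47.8 CPM (aged EPA), lowest in young, the reverse of Hspa1a. Its inhibitor Hsbp1 stood at 90.8 CPM (young), 85.3 CPM (aged control) and 86.8 CPM (aged EPA). None of the 4 compared genes of the heat shock factor list was 1.5-fold apart in any comparison. Of 15 genes listed as HSP70 cofactors (with Hspbp1, and with Hspbap1, which shares only the letters) and 16 HSP90 cofactors, none was 1.5-fold apart either. Of all genes, 2.69% were at least 1.5-fold higher and 2.55% lower in aged control against young. These shares were 1.69% and 1.91% between the aged libraries, and 2.4% and 2.96% in aged EPA against young. Such genes were rare at large, so their absence does not set these short lists apart. Aarsd1, an HSP90 cofactor, came closest, at 14.9 CPM (young), 18.1 CPM (aged control) and 21.01 CPM (aged EPA), with a log2 change of 0.47 in aged EPA against young (log2 count ratio 0.58, 95% counting interval 0.45 to 0.70). Cdc37l1, a relative of the kinase cofactor Cdc37, was highest in young, at 31.3 CPM (young), 25.0 CPM (aged control) and 23.5 CPM (aged EPA). Fkbp8, a cofactor on the mitochondrial surface, was lowest in aged control, at 82.8 CPM (young), 69.8 CPM (aged control) and 90.98 CPM (aged EPA). These 3 were added after their values were seen. Bag3, the nucleotide exchange factor that pairs with Hspb8, stood at 271 CPM (young), 259 CPM (aged control) and 248 CPM (aged EPA). Over own totals the aged libraries were level for Bag3 (log2 count ratio 0.004, 95% counting interval -0.03 to 0.04). Bag6, which guards newly made membrane proteins, stood at 165 CPM (young), 177 CPM (aged control) and 188 CPM (aged EPA). Smyd1, a methyltransferase that aids myosin assembly, stood at 459 CPM (young), 478 CPM (aged control) and 479 CPM (aged EPA), and Unc45b, the myosin chaperone that works with HSP90, at 190.0 CPM (young), 206 CPM (aged control) and 218 CPM (aged EPA).

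The cytosolic chaperonin TRiC and its feeder prefoldin, which fold actin and tubulin, were mostly lower in aged control than in young. Of their 14 genes, 12 were lower (13 over own totals), with a median log2 change of -0.10, where 52.4% of all genes were lower (53.5% over own totals). Tcp1 (129, 131 and 129 CPM) and Cct2 (91.3, 89.0 and 86.7 CPM), subunits of TRiC, were nearly level. Pfdn4, a prefoldin subunit, was the 1 gene past 1.5-fold, at 6.23 CPM (young), 3.55 CPM (aged control) and 2.15 CPM (aged EPA). Of 16 other chaperones of the endoplasmic reticulum and mitochondria none was 1.5-fold apart, and few of all genes were (shares given above). Calr, which folds glycoproteins, stood at 191 CPM (young), 181 CPM (aged control) and 166 CPM (aged EPA), in the order of Hspa5 and Hsp90b1, and Trap1, the mitochondrial HSP90, was lowest in young at 133 CPM (young), 157 CPM (aged control) and 156 CPM (aged EPA). Among 4 compared genes of crystallins and related proteins, Clu, a secreted chaperone, was lowest in aged EPA at 58.4 CPM (young), 69.1 CPM (aged control) and 42.1 CPM (aged EPA) (log2 change -0.70 against aged control).

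Transcript length and GC content moved with the values. Across the 64 genes, Spearman's rho of the log2 change with exon length was 0.25 in aged control against young and -0.20 between the aged libraries, and across all 12966 genes it was 0.26 and -0.20. With GC content of the exons, rho over the 64 genes was 0.08 in aged control against young, 0.22 between the aged libraries and 0.29 in aged EPA against young, and over all genes it was -0.01, 0.21 and 0.16. These are descriptions across genes, which are not independent replicates. In aged control against young, the 10 chaperone genes with under 2000 exon bases had a median of -0.13, equal to the -0.13 of all genes of that length, the 31 with 2000 to 5000 bases had -0.09 against -0.03, and the 23 with at least 5000 bases had 0.01 against 0.04. Hspe1, with 1474 exon bases, is in the short group, and Hspa1a, Hspa1b and Hsp90aa1 are in the middle group. The part of length and GC content in the differences was not tested.

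**Figure D5:**
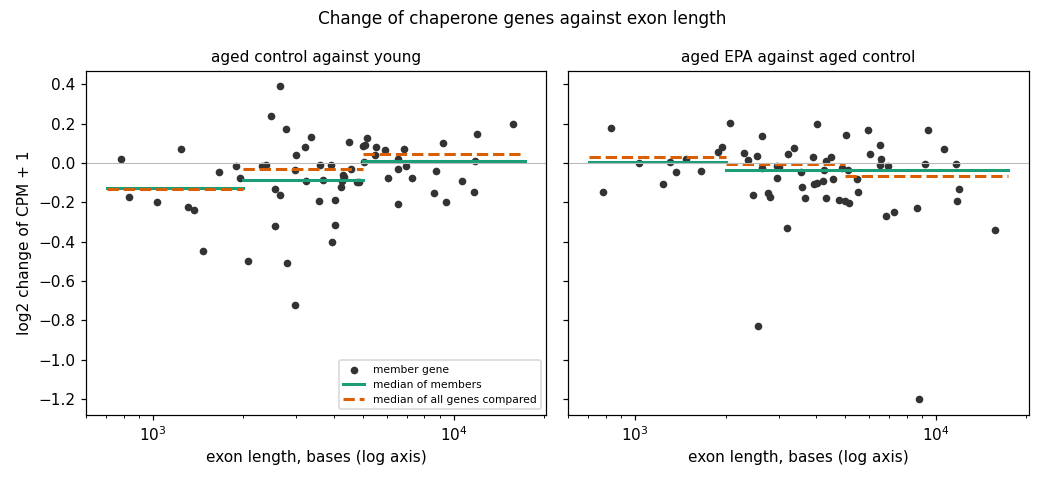
Log2 change of CPM + 1 of the 64 chaperone genes (points) against annotated exon length in bases (log axis), in aged control against young (left) and aged EPA against aged control (right). Green lines are medians of the chaperone genes and dashed orange lines medians of all genes in 3 length classes; both climb with length on the left, from -0.13 to 0.01 and from -0.13 to 0.04.

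By count, heat shock elements were more frequent before chaperone genes than before genes at large. Among the 52 chaperone genes with a RefSeq window, 14 (26.9%) held the element of 2 units, against 14.5% of all genes with a window. These were Dnaja1, Dnaja4, Dnajb4, Dnajb6, Dnajc10, Dnajc27, Hspa1a, Hspa1b, Hspb1, Hspb3, Hspb6, Hspd1, Hspe1 and Hsph1. Against young, the 14 had a median log2 change of -0.19 in aged EPA, with 12 lower, and the 38 without a match had -0.09, with 26 lower, where 56.7% of all genes were lower. Between the aged libraries the medians were -0.10 and -0.02, but -0.06 and 0.03 by count ratio over own totals. The endoplasmic reticulum stress element (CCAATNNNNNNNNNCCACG or its reverse complement) was found before Hspa5, Hsp90b1 and Dnajc3 (5.77%), against 0.130% of all genes. Hspa5 and Hsp90b1 were lower in both aged libraries than in young, while Dnajc3, an inhibitor of the translation-blocking kinase PERK, was highest in aged control at 43.9 CPM (young), 47.95 CPM (aged control) and 41.5 CPM (aged EPA). The frequent CCAAT letters (CCAAT or ATTGG) were before 36.5% of the chaperone genes and 37.5% of all genes, and TATAAA or TTTATA before 7.69% and 14.3%. The elements of 2 units are contained in those of 3 units, and members such as Hspa1a and Hspa1b are near copies, so that the counts are not of independent genes.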

How the data were processed

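RNA was measured in 3 pooled libraries, 1 per group. The deposited values are CPM per gene, calculated by the authors. The submitters' processing notes name HISAT2 2.1.0, StringTie 1.3.4d, R 3.5.0 and the mouse build GRCm38 (mm10); the role of each tool, the annotation and the use of strand are not given in the sources used here. The deposited CPM became whole reads when multiplied by 1 of 5 divisors (56034275 to 57687235) that differed from row to row, which set them -2.98% to 2.84% apart from values scaled by each library's own total. Changes are log2 ratios of deposited CPM + 1, which understate changes of low genes; rows with a repeated symbol were summed. Count ratios use recovered reads over own totals with exact Clopper-Pearson 95% intervals, conditional on the sum of both counts. Reads were not tested across groups, since each group is 1 library.

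Exon lengths, positions, overlaps and shared 50-base stretches came from GENCODE M21 (GRCm38), and upstream windows from RefSeq. Described genes were those at least 1.5-fold apart in any comparison, the 5 highest and 5 lowest per comparison, the 2 of highest CPM per family, all genes of families of 4 or fewer, and, of the assisting genes, those 1.5-fold apart and the 2 of highest CPM; others were added for their role after their values were seen. The genes and lists were chosen with earlier results of these data known. The calculations were tested on simulated data. Python 3.11.15, pandas 2.3.3, numpy 2.4.6, scipy 1.17.1 and matplotlib 3.10.9 were used, and 12 alternatives were tried, 2 of them chosen after seeing the data.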

Additional observations from a re-analysis of the deposited data

Results flagged for a closer look

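Signal was present in rows of the tables that the choice of genes left out. Hspd1-ps3, a row with a pseudogene name, had a mean of 5.82 CPM (5.396 in young, 6.51 in aged control and 5.55 in aged EPA), above 3 reads in every library. It shares 38.0% of the 50-base stretches of Hspd1. With it added, the log2 count ratio of Hspd1 in aged control against young was -0.12 (95% counting interval -0.17 to -0.07). Dnajc19-ps had a mean of 4.12 CPM (4.70, 3.36 and 4.29 CPM), also above 3 reads in every library and in the order of Dnajc19. With it added, the log2 count ratio of Dnajc19 was -0.32 in aged control against young (-0.42 to -0.23) and 0.23 in aged EPA against aged control (0.14 to 0.33).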

How the results depend on the processing

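No paired analysis was possible because each group is 1 library. Of 105 summary values recomputed under 12 alternatives, 94 kept their direction and stayed within 1.5 times the value given, and of 735 values of single genes 0 reversed among those called and 55 moved beyond the counting interval. In aged control against young, the count of genes lower by at least 1.5-fold (1) became 2 with a pseudocount of 0.1 CPM and 2 without mitochondrial genes and the 20 most abundant genes (Hspb11 joined), and 0 at 2-fold, without Hspa1a and Hspa1b, and without the 20 genes sharing over 5% of their 50-base stretches. Between the aged libraries the count lower with EPA (2) became 1 at 2-fold. In aged EPA against young the count higher (0) became 1, Hspa2, with a pseudocount of 0.1 CPM or over own totals, and the count lower (4) became 2 at 2-fold, without Hspa1a and Hspa1b, and without the genes of shared sequence. The median log2 change of the chaperone genes ranged from -0.06 to -0.01 in aged control against young, from -0.03 to -0.00 in aged EPA against aged control and from -0.11 to -0.05 in aged EPA against young. By the median of ratios, 32 genes were higher and 32 lower in aged EPA against aged control (49.8% and 50.2% of all genes). Depth left a counting interval of at most 0.41 on either side on the log2 scale in that comparison, and the number of libraries, not the depth, limits what can be said of the groups.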
